A study of Mus musculus with 12 samples.

Results

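The genes described here encode the proteins of the cytosolic ribosome. They were taken by symbol and not by any measured value. A member is a protein-coding gene named Rps or Rpl with a number, with or without a final a, x, y or l, or one of Rplp0, Rplp1, Rplp2 and Rpsa. This gave 80 of the 46983 genes in the expression table, 31 of the small subunit and 49 of the large subunit. A further 2 symbols fitted the pattern but are annotated as pseudogenes and were left out.

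The RNA came from C2C12, a mouse skeletal muscle cell line that grows as myoblasts and fuses into myotubes when it differentiates. WT cells are labelled wild type, and their titles also name PB-IP, a PiggyBac transposon plasmid, but whether they carried it without an insert is not stated. PPARγ/+ cells received PB-IP with the coding sequence of PPARγ, a nuclear receptor best known as the regulator of fat cell formation, and positive clones were selected with puromycin. Each cell type was sequenced on 0d and on 5d of differentiation with 3 libraries per group, described as biological replicates, so that the p-values below measure the spread between these libraries. The series record speaks of inducible cells and uninduced controls, whereas the study's methods describe transfection and selection only. The samples came from bulk cultures of 1 line, and the promoter that drives the transgene is not named in the sources used here.

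A ribosome is built from ribosomal RNA and one copy of most of these proteins, which are made in the cytosol and imported into the nucleolus for assembly. Their messages are among the most abundant of a growing cell. Most begin with a cytosine followed by a run of pyrimidines at the cap, the terminal oligopyrimidine tract, through which mTORC1 and Larp1 set their translation and stability together. In muscle cells, ribosome production is known to accompany both proliferation and the growth of fibres.

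The start regions of 6 members are shown because the tract lies there. They include members that fell and members that were not called below, but not Rps2, the lowest in WT cells. Each window runs from 40 bases before to 20 bases after the RefSeq start in GRCm38.p6, 5′ to 3′ on the strand of the gene. Capitals mark the longest run of C and T between 10 bases before and 20 bases after the start.
Rps6 (chr4:86857348-86857407, minus strand): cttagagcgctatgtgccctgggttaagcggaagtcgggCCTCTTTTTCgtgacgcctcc
Rplp2 (chr7:141447611-141447670, plus strand): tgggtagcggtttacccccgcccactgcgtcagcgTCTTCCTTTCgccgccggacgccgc
Rps12 (chr10:23787190-23787249, minus strand): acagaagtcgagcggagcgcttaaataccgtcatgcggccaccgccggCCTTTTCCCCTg
Rps27 (chr3:90213629-90213688, minus strand): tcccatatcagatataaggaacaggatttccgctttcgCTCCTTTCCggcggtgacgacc
Rps27l (chr9:66946046-66946105, plus strand): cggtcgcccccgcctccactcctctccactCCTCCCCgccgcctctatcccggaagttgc
Rpl10 (chrX:74270776-74270835, plus strand): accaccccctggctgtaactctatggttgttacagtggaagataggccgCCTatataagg
Such runs were common among the members. Of the 80, 60 had an entry in the set of RefSeq start regions used here. Of these 60, 20 (33.3%) held a run of at least 8 C or T in that stretch, against 11.2% of all 27025 start regions in the set. Within that stretch the runs had 11 bases in Rps12, 10 in Rps6 and Rplp2, 9 in Rps27, 7 in Rps27l and 3 in Rpl10. Of members not shown, the runs had 6 bases in Rps2 and 5 in Rpsa, both among the largest falls. They had 7 in Rplp0, which fell, and 8 in Rpl39, which was not called. The run of Rps27l goes on beyond the edge of the stretch and was cut there. Where the messages begin in these cells was not measured, so a short run does not show that a tract is absent. Whether the length of the run goes with the change of a member was not tested. The letters CCGGAAG, the core that Ets factors such as GABP bind, were found on either strand within 250 bases before to 50 after the start in 24 of the 60 (40%), against 9.12% of all. The longer CCGGAAGT, which contains it, was found in 12 (20%) against 4%, and TATAAA in 5 (8.33%) against 14.2%. A match describes these letters only.

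Expression was measured as FPKM, in which the fragments of a gene are scaled to its exonic length and to the depth of its library. FPKM is relative to all RNA of a library, so that a smaller amount of a message and a larger amount of other RNA cannot be told apart, nor can fewer cells of a type and less RNA per cell. Each library held 15537446 to 21991280 fragments assigned to a gene. Pparg was higher in the PPARγ/+ libraries, with 27.98 to 46.4 FPKM on 0d against 5.10 to 7.56 in WT cells and 40.1 to 92.7 on 5d against 3.12 to 4.59. The 8 muscle markers, among them Myod1, Myog and Myh3, summed to between 130.2 and 252 FPKM in WT_0d, 466 and 2003 in WT_5d, 56.5 and 81.0 in PPARγ/+_0d and 379 and 462 in PPARγ/+_5d. All 8 reached 1 FPKM in at least 1 library. Myf5, also among the 8, was lower on 5d in WT cells, at 3.53 to 5.96 FPKM against 11.3 to 13.2 on 0d. In PPARγ/+ cells it was higher on 5d, at 5.58 to 8.47 FPKM against 3.66 to 4.25. The 6 adipocyte markers summed to at most 0.0794 FPKM in WT cells, 2.90 to 5.04 in PPARγ/+_0d and 13.3 to 67.2 in PPARγ/+_5d, with Lep listed at 0 everywhere. The 3 fibroblast markers summed to 81.4 to 93.7, 267 to 498, 19.4 to 38.6 and 503 to 607 in the same order of groups. On 5d most of the sum was Dcn, at 219 to 363 FPKM in WT_5d and 430 to 532 in PPARγ/+_5d. Pdgfra was also higher on 5d in both cell types, and Col1a1 in PPARγ/+ cells. In WT cells the days overlapped for Col1a1, at 52.7 to 76.0 FPKM on 0d and 34.8 to 151 on 5d. Of the markers of endothelium, blood, epithelium and neurons, Cd68, Krt14 and Syn1 alone reached 1 FPKM.

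The members took up a large part of the measured RNA on 0d and a smaller part on 5d in both cell types. Of the summed FPKM of all genes, they made up 10.6%, 9.87% and 11.1% in the 3 WT_0d libraries and 6.57%, 7.12% and 7.60% in WT_5d. The shares were 11.1%, 10.5% and 9.62% in PPARγ/+_0d and 7.74%, 7.94% and 7.81% in PPARγ/+_5d. In both cell types every 5d library lay below every 0d library. The means were 10.5% ± 0.594 and 7.09% ± 0.516 in WT cells and 10.4% ± 0.758 and 7.83% ± 0.1002 in PPARγ/+ cells (SD, n = 3). On 5d the lowest PPARγ/+ library lay above the highest WT library. As a share of fragments, which counts long messages more, the means went from 4.59% to 3.01% and from 4.60% to 3.36%.

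**Figure D1:**
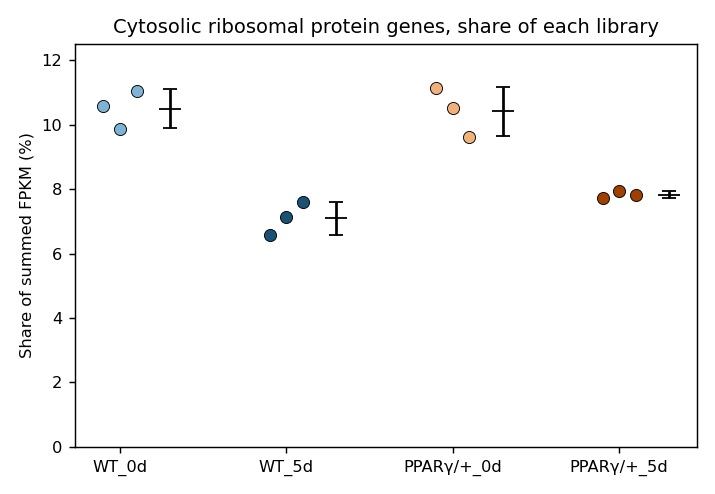
Share of the summed FPKM of all genes taken up by the 80 members, in percent on a linear axis from 0, for each of the 12 libraries (points) with the mean and SD of the 3 libraries of a group (bars beside them). The 0d libraries lie between 9.62% and 11.1% and the 5d libraries between 6.57% and 7.94%.

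Most members were abundant. Of the 80, 77 reached 0.1 FPKM in at least 3 libraries and were tested, and 76 averaged 1 FPKM or more over the 12 libraries. Among these 76 the mean ran from 27.1 FPKM for Rpl26 to 1367 for Rps12, with a median of 211. Rps12, Rps24 and Rplp0 together made up 14.04% of the members' FPKM. The order of levels between members also depends on the length behind each FPKM. For 49 of the 78 members with fragments this was the length of all exons joined in GENCODE M21, and for the other 29 it was another length, inferred from the values and shorter in 27. That of Rps12 was 476 bases against 2027 annotated. In fragments not divided by length, Rplp0 was first, with a mean of 39052 per library against 14705 for Rps12.

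The first comparison asked which members changed as WT cells differentiated from 0d to 5d. Of the 77 members tested, 68 fell and 0 rose at a Benjamini-Hochberg adjusted p of at most 0.05 (limma on log2(FPKM + 0.1), adjusted over all 18023 genes tested). Over all genes tested, 23.0% fell, 14.1% rose and 37.1% were called in either direction. Among the 4812 genes with a mean of at least 10 FPKM, which are closer to the members in level, 38.9% fell and 15.6% rose. At an unadjusted p of at most 0.05, 74 members were called, against 8440 of the 18023 genes tested. The median log2 change of the members was -0.59, a 1.51-fold fall, with an interquartile range from -0.70 to -0.52. The median over all genes tested was -0.08, and -0.18 over these abundant genes. For 73 members every 5d library lay below every 0d library, against 30.9% of all genes, and for 0 above, against 20.2%. The study's own thresholds were an unadjusted p of at most 0.05 and a change of at least 2-fold. The study set them on DESeq2, and here they were set on the limma fit. They called 1 member, Rps2, against 7.53% of all genes that fell by this rule, 8.94% that rose and 16.5% in either direction. Rpsa and Rps27l lay just inside 2-fold, and 3 members were called without WT_0d replicate 2 or without WT_5d replicate 3, and 2 without WT_0d replicate 1 or without WT_5d replicate 2.

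The same fall was seen in PPARγ/+ cells. There 66 of the 77 members fell and 0 rose, against 28.8% of all genes that fell, 18.8% that rose and 47.5% in either direction, and 49.98% that fell among the abundant genes. At an unadjusted p of at most 0.05, 71 were called, against 9808 of the 18023 genes tested. The median log2 change of the members was -0.45, a 1.37-fold fall, against -0.10 over all genes tested and -0.22 over those of at least 10 FPKM. For 74 members the libraries of the 2 days did not overlap, all lower on 5d, against 34.4% of all genes that were lower and 23.8% that were higher. The 2-fold rule called 2 members, Rps2 and Rps27l, against 6.06% of all genes that fell, 9.11% that rose and 15.2% in either direction, and under median-ratio scaling it called 1. The members called in WT and PPARγ/+ cells overlapped in 65, which is all but 3 of the WT calls (Rps29, Rpl38 and Rpl26) and all but 1 of the PPARγ/+ calls (Rpl37a). Among the 8 called in neither were Rps27, Rps28, Rpl10, Rpl17, Rpl24 and Rpl39.

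The size of the falls depended on how the libraries were scaled, and the direction of the median over the members did not. Median-ratio scaling, which sets the libraries to a common typical gene, moved the median of all genes from -0.08 to 0.03 in WT cells and from -0.10 to 0.02 in PPARγ/+ cells. The median of the members became -0.46 and -0.32. Relative to the median of all genes the members lay at -0.51 before and -0.49 after this scaling in WT cells, and at -0.36 before and -0.34 after it in PPARγ/+ cells. In WT cells 64 members then remained called, against 35.9% of all genes in either direction at this scaling. In PPARγ/+ cells 43 remained, all of them among the 66, against 44.8% of all genes.

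**Figure D2:**
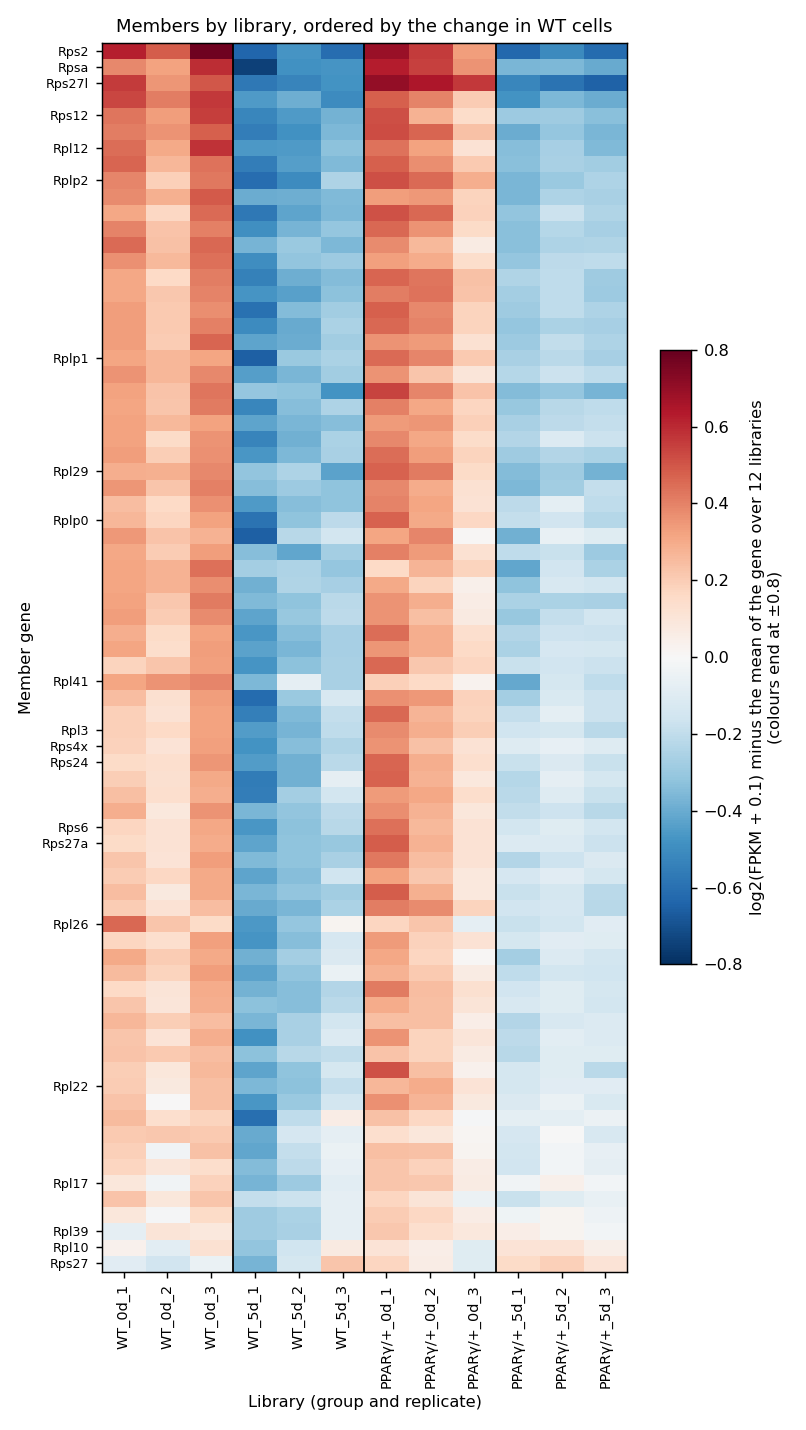
Expression of the 76 members that averaged 1 FPKM or more in the 12 libraries, as log2(FPKM + 0.1) minus the mean of the gene over all libraries, ordered from the lowest change in WT cells (Rps2, top) to the highest (Rps27, bottom). Members described in the text are labelled. Red is above and blue below the mean of the gene. The 0d columns are mostly red and the 5d columns mostly blue, except in the last 2 rows, Rpl10 and Rps27, which lack this split.

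The level of the members also differed between libraries of a group. The median over the members of the deviation from the mean of each gene was -0.44, -0.33 and -0.24 on the log2 scale in the 3 WT_5d libraries. The summed muscle markers of the same libraries were 2003, 1362 and 466 FPKM. In WT_0d the deviations were 0.29, 0.18 and 0.33 beside 168, 252 and 130.2 FPKM of muscle markers, and in PPARγ/+_0d they were 0.38, 0.29 and 0.12 beside 56.5, 60.3 and 81.0. Within each of these groups the library with the larger sum of muscle markers had the lower members. On 0d, however, most of the sum was Des, at 107.8 to 180.1 FPKM in WT_0d and 45.5 to 62.9 in PPARγ/+_0d. In PPARγ/+_5d, with deviations of -0.24, -0.14 and -0.19 beside 379, 435 and 462 FPKM, the order was not reversed in this way. The part of muscle markers in the level of the members was not tested.

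Among the messages for small subunit proteins, Rps2, Rpsa and Rps27l fell most in both cell types. Rps2, a protein of the 40S subunit near the path of the incoming mRNA (gene ENSMUSG00000044533, chr17:24718116-24721929), was at 297, 269 and 331 FPKM in WT_0d and at 124, 138 and 126 in WT_5d. The PPARγ/+ libraries were at 311, 283 and 242 on 0d and at 124, 135 and 126 on 5d. The days did not overlap in either cell type, and the levels of the 2 cell types did. The log2 change was -1.20 ± 0.11 (SE) in WT cells (limma adjusted p = 5.93e-04) and -1.11 ± 0.10 in PPARγ/+ cells (adjusted p = 2.21e-04). Its exons share 8.09% of their bases with other genes, mostly the small nucleolar RNA Snora64.

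Rpsa, also known as the laminin receptor, is needed for the maturation of the 40S subunit (gene ENSMUSG00000032518, chr9:120127689-120132369). It was at 813, 777 and 937 FPKM in WT_0d against 371, 446 and 449.7 in WT_5d, a log2 change of -0.997 ± 0.14 (limma adjusted p = 0.00297). PPARγ/+ cells went from 961, 909 and 798 to 483, 486 and 471, a log2 change of -0.89 ± 0.09 (adjusted p = 4.38e-04). All 3 PPARγ/+ libraries on 5d lay above all 3 WT libraries on 5d, a difference of 0.19 ± 0.12 that did not pass the test (adjusted p = 0.475).

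Rps27l fell in both cell types, and its parent Rps27 did not pass the test in either. Rps27l is a paralog of Rps27 known as a target of p53. It was at 100.3, 86.7 and 96.1 FPKM in WT_0d and at 45.7, 47.1 and 48.8 in WT_5d. Its PPARγ/+ libraries were at 111, 107 and 101 on 0d and at 47.3, 45.1 and 43.4 on 5d. The log2 change was -0.996 ± 0.08 in WT cells (limma adjusted p = 4.38e-04) and -1.22 ± 0.06 in PPARγ/+ cells (adjusted p = 2.72e-05). Rps27 was at 293, 281 and 302 FPKM in WT_0d and at 241, 283 and 364 in WT_5d. Rps27 in PPARγ/+ cells was at 352, 325 and 292 on 0d and at 348, 357 and 337 on 5d. Its days overlapped in both cell types, with log2 changes of 0.00 ± 0.16 (adjusted p = 0.999, interval -0.39 to 0.39) and 0.11 ± 0.08 (adjusted p = 0.341, interval -0.09 to 0.31). Among the members of at least 1 FPKM, Rps27 stood at the top of the order of changes in both cell types and Rps27l among the lowest 3.

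The coding sequences of the pair are shown because reads could be told apart only where they differ. They are from GRCm38 (GENCODE M21), with introns left out, 5′ to 3′ from the start codon to the stop codon. Capitals mark the bases that differ.
Rps27 (chr3:90212725-90213615, minus strand): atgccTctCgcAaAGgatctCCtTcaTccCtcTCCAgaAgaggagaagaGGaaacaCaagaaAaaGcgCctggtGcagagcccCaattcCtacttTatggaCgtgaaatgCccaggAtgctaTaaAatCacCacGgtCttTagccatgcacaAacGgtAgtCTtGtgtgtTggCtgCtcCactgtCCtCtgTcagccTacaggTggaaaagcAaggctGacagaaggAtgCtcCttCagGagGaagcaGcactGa
Rps27l (chr9:66946175-66949357, plus strand): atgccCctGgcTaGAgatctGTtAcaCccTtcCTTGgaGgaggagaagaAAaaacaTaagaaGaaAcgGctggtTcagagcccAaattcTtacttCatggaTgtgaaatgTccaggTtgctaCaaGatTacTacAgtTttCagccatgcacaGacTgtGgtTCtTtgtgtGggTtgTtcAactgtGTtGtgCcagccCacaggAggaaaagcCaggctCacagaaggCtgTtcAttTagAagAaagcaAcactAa
Both have 255 coding bases, of which 61 differ (76.1% identity), and no stretch of more than 11 bases is shared in place.

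**Figure D3:**
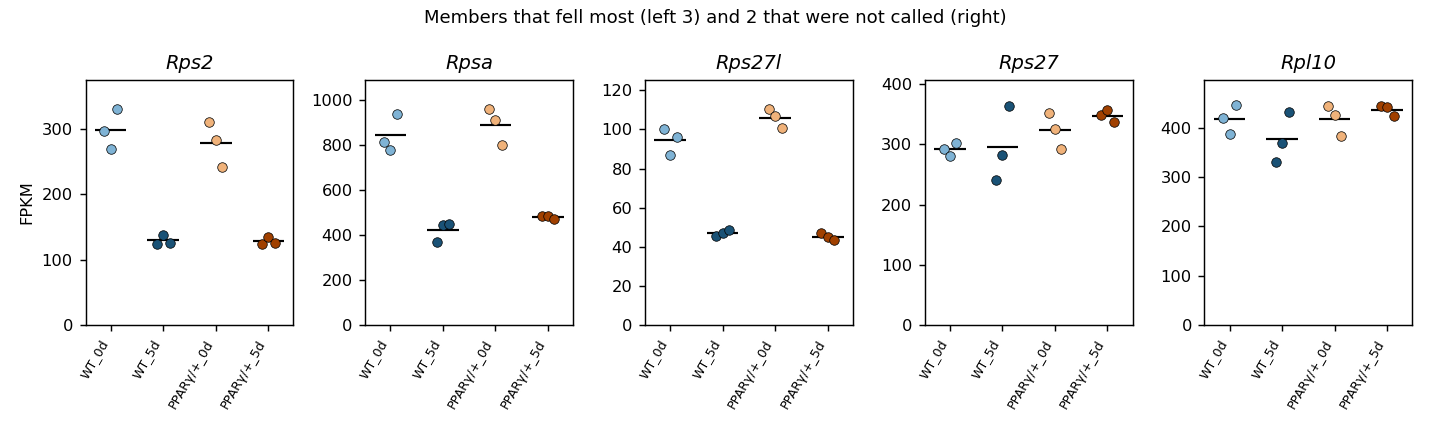
FPKM of 5 members in each of the 12 libraries (points) with the mean of each group (lines), on linear axes from 0. Rps2, Rpsa and Rps27l lie lower in every 5d library than in every 0d library of the same cell type, whereas the days overlap for Rps27 and Rpl10.

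The messages for the other small subunit proteins named here fell by less. Rps12, the member with the highest mean FPKM, was at 1770.5, 1664 and 1937 FPKM in WT_0d and at 919, 962 and 1014 in WT_5d, a log2 change of -0.89 ± 0.16 (limma adjusted p = 0.00634). In PPARγ/+ cells it went from 1887, 1601 and 1456 to 1075, 1080.2 and 1043, a change of -0.62 ± 0.13 (adjusted p = 0.00662). The annotation names 24 pseudogenes after Rps12, and how reads were divided between these copies and the gene is not stated.

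Rps6, the substrate of the S6 kinases downstream of mTORC1, was at 445, 429 and 491 FPKM in WT_0d and at 286, 315 and 339 in WT_5d (-0.54 ± 0.12, limma adjusted p = 0.0127). It went from 538, 474 and 429 to 358, 371 and 357 in PPARγ/+ cells (-0.40 ± 0.10, adjusted p = 0.0133). Rps27a, which is made as a fusion with ubiquitin, fell by 0.54 and 0.42 on the log2 scale in WT and PPARγ/+ cells (adjusted p = 0.00520 and 0.0119). Rps24 fell by 0.56 and 0.45 (adjusted p = 0.0289 and 0.0158) and the X-linked Rps4x by 0.56 and 0.32 (0.0128 and 0.0185). For all of these the days did not overlap in either cell type, but several calls depended on single libraries. In WT cells Rps24 was not called when any library but WT_5d replicate 3 was left out (adjusted p up to 0.120), nor were Rps6 and Rps4x without WT_0d replicate 3 or WT_5d replicate 2 (up to 0.0584 and 0.0588). In PPARγ/+ cells Rps24 and Rps4x were not called without PPARγ/+_0d replicate 2 or without any one of the 5d libraries (up to 0.0694 and 0.0691), nor was Rps6 without PPARγ/+_5d replicate 1 or 3 (up to 0.0544).

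In the large subunit, the messages for the 3 proteins of the stalk fell in both cell types. Rplp0 anchors the stalk, which recruits the elongation factors, and Rplp1 and Rplp2 form its dimers. Rplp0 was at 1230.1, 1149 and 1278 FPKM in WT_0d and at 678, 818 and 882 in WT_5d, a log2 change of -0.63 ± 0.16 (limma adjusted p = 0.0241). In PPARγ/+ cells it went from 1414, 1261 and 1144 to 895, 919 and 872, a change of -0.50 ± 0.11 (adjusted p = 0.00916). Rplp0 is widely used as a reference gene in quantitative PCR, and here its days did not overlap in either cell type. In WT cells, however, it was not called when any library but WT_5d replicate 3 was left out (adjusted p up to 0.0989). Rplp1 fell by 0.70 and 0.60 (adjusted p = 0.0158 and 0.00283, with up to 0.0685 in WT cells without WT_0d replicate 1 or 3 or WT_5d replicate 2) and Rplp2 by 0.79 and 0.72 (0.00378 and 3.59e-04). Rpl12, at the base of the stalk, fell by 0.86 and 0.61 (0.00144 and 0.00154).

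Rpl3, a protein close to the peptidyl transferase centre, was at 228, 223 and 249.9 FPKM in WT_0d and at 146, 154 and 174 in WT_5d (-0.56 ± 0.10, limma adjusted p = 0.00689). In PPARγ/+ cells it went from 259, 244 and 228 to 178, 181 and 172 (-0.46 ± 0.07, adjusted p = 0.00164). Its muscle-restricted paralog Rpl3l was near absent. It had 1, 1 and 1 fragments in WT_0d, 3, 2 and 3 in WT_5d, 0, 4 and 2 in PPARγ/+_0d and 1, 3 and 2 in PPARγ/+_5d. All group means lie under 3 fragments, the limit that a count of 0 allows, so that no fold is given. Rpl10l and Rpl39l, paralogs known from male germ cells, were listed at 0 in every library. Hence 3 of the 4 members whose symbol ends in l were not tested, and Rps27l was the only one expressed at a level near that of other members.

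Rpl22, an RNA-binding protein of the large subunit, went from 80.6, 73.9 and 82.6 to 54.5, 55.6 and 61.3 FPKM in WT cells and from 84.1, 85.9 and 75.6 to 63.5, 65.8 and 65.7 in PPARγ/+ cells. The log2 changes were -0.47 ± 0.08 (limma adjusted p = 0.00628) and -0.33 ± 0.06 (adjusted p = 0.00487). Rpl29 fell by 0.65 in WT and by 0.68 in PPARγ/+ cells (adjusted p = 0.00156 and 0.00107). Rpl41, the smallest ribosomal protein, fell by 0.59 and 0.38 (0.0139 and 0.0198). It was not called in WT cells without WT_0d replicate 1 or 3 (adjusted p up to 0.0651), nor in PPARγ/+ cells without PPARγ/+_0d replicate 1 or 2 or PPARγ/+_5d replicate 1 or 3 (up to 0.0729). Rpl26 fell by 0.53 in WT cells (0.0316) and lay just outside the threshold in PPARγ/+ cells (-0.25 ± 0.08, adjusted p = 0.05001). Rpl26 gave an adjusted p above 0.05 in WT cells when any one of its 6 libraries but WT_5d replicate 3 was left out (up to 0.104), and in PPARγ/+ cells it fell without PPARγ/+_0d replicate 3 (0.00592).

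Some large subunit messages did not pass the test in either cell type. Rpl10, an X-linked protein that joins the 60S subunit late (gene ENSMUSG00000008682, chrX:74270812-74273135), was at 420.2, 388 and 446 FPKM in WT_0d and at 330.2, 368 and 431 in WT_5d. On the PPARγ/+ side Rpl10 was at 443, 426 and 383 on 0d and at 443, 442 and 424 on 5d. The days overlapped in both cell types, with log2 changes of -0.16 ± 0.14 (limma adjusted p = 0.406, interval -0.48 to 0.17) and 0.07 ± 0.08 (adjusted p = 0.530, interval -0.12 to 0.26). Rpl39, which lines the exit tunnel, was at 103, 117 and 115 FPKM in WT_0d and 89.1, 91.0 and 103 in WT_5d, and at 126, 119 and 115 against 113, 110.4 and 107 in PPARγ/+ cells. Its changes of -0.24 ± 0.09 and -0.13 ± 0.06 did not pass the test (adjusted p = 0.0883 and 0.111). Nor did those of Rpl17, at -0.33 ± 0.14 and -0.17 ± 0.08 (adjusted p = 0.107 and 0.140), although its days did not overlap. Without WT_5d replicate 3, Rpl39 and Rpl17 were called in WT cells (adjusted p = 0.0346 and 0.0470).

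Rpl24 was listed at 0.157 to 0.551 FPKM, or 3 to 14 fragments per library, far below every other member tested. Its exons share 47.0% of their bases with the transcript Gm28037 on the same strand, and how reads in shared exons were counted is not stated. Its changes of 0.03 ± 0.32 and -0.57 ± 0.28 (limma adjusted p = 0.960 and 0.141) are uncertain for both reasons. In all, 37 members share exonic bases with another annotated gene, up to 66.2% for Rpl35, which overlaps Wdr38 on the other strand, and 62.3% for Rpl23a, and the library kit does not mark strand.

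The changes per gene were close in the small and the large subunit, a difference that was not tested. The median log2 change was -0.62 over 31 small subunit members and -0.57 over 46 large subunit members in WT cells, with 29 and 39 called. In PPARγ/+ cells the medians were -0.44 and -0.45, with 28 and 38 called. The ratio of the summed FPKM of small to large subunit members was 0.857 ± 0.0122 in WT_0d and 0.809 ± 0.00421 in WT_5d, and 0.848 ± 0.0153 in PPARγ/+_0d and 0.822 ± 0.00480 in PPARγ/+_5d (SD, n = 3). The ratios of the 2 days did not overlap in either cell type. Without Rps12 the means were 0.744, 0.718, 0.745 and 0.730, and the days still did not overlap.

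Across members the changes in the 2 cell types ran in parallel. Over the 76 members of at least 1 FPKM, Pearson's r between the log2 change in WT and in PPARγ/+ cells was 0.936 and Spearman's rho 0.922. The 2 changes rest on separate libraries, but the members share reads with pseudogenes and the annotation in both, and genes are not independent replicates. Coding sequences were taken only from transcripts tagged as principal in the annotation, which were found for 71 of the 76 members. Over these 71, the change and the coding length had an r of -0.31 in WT cells and -0.29 in PPARγ/+ cells. The change and the GC content of the coding sequence had an r of -0.28 and -0.18. With the mean level the r was -0.05 and 0.07.

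**Figure D4:**
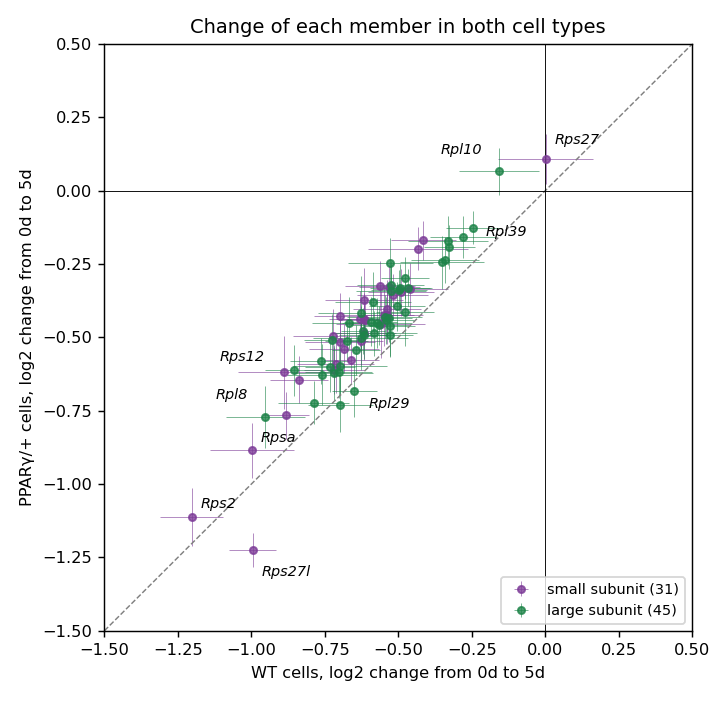
Log2 change from 0d to 5d of the 76 members of at least 1 FPKM in WT cells (horizontal axis) and in PPARγ/+ cells (vertical axis), with SE bars, small subunit members in purple and large subunit members in green. The dashed line marks equal change. For 73 of the 76 the log2 change was less negative or more positive in PPARγ/+ than in WT cells, so that the points lie above the line. Rps27l lies below it.

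The comparison of PPARγ/+ with WT cells asked whether the level of the members differed between the cell types on either day. An effect of PPARγ cannot be told apart here from one of the transfection, the selection or the clones. On 0d, 0 of the 77 members were called (limma, all 12 libraries), against 5.58% of all genes (2.20% higher and 3.37% lower in PPARγ/+ cells). At an unadjusted p of at most 0.05 there was 1 member, against 3831 of the 18023 genes tested. With voom on the fragments recovered from the FPKM, 0 were called and 2 had such a p. The median difference was 0.02 (SE of a typical member 0.10), and 46 of the 77 differences were positive. Under median-ratio scaling the median was -0.02 and 46 were negative. The lowest members were Rpl41 (-0.23 ± 0.11), Rpl26 (-0.17 ± 0.13) and Rpl12 (-0.15 ± 0.10), and the highest, after the scarcely counted Rpl24, were Rps27l (0.17 ± 0.07) and Rps27 (0.14 ± 0.13). The libraries of the cell types did not overlap for 1 member that was higher in PPARγ/+ cells, Rps27l, against 13.7% of all genes, and for 3 that were lower, Rpl41, Rps29 and Rpl35, against 13.1%.

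On 5d most members had a slightly higher mean in PPARγ/+ cells, and no single member passed the threshold. Again 0 of 77 were called, against 1.63% of all genes (0.893% higher and 0.738% lower). At an unadjusted p of at most 0.05 there were 8 members (limma), against 2766 of the 18023 genes tested. With voom 13 members had such a p, and 0 were called. The median difference was 0.15, a 1.11-fold higher level, and 72 of the 77 differences were positive, against 9849 positive differences among the 18023 genes tested, whose median was 0.02. For 28 members all PPARγ/+ libraries lay above all WT libraries, against 10.2% of all genes, and for 0 they lay below, against 8.31%. Members share libraries, so that a shift of 1 library moves nearly all of them, and these counts are not independent. The largest differences were those of Rps4x (0.27 ± 0.10, adjusted p = 0.230), Rps27 (0.25 ± 0.13, adjusted p = 0.401) and Rpl17 (0.25 ± 0.11, adjusted p = 0.301). The lowest were those of Rpl24 (-0.33 ± 0.31), Rps27l (-0.06 ± 0.07) and Rpl41 (-0.02 ± 0.11). Without WT_5d replicate 3, the WT_5d library with the fewest muscle markers, 3 members were called, all higher in PPARγ/+ cells, as were 12.3% of all genes in either direction, and 34 had an unadjusted p of at most 0.05. Without WT_5d replicate 1, which has the most, 0 had an unadjusted p of at most 0.05. Counts over all genes at an unadjusted p were not made for these fits or for voom. With array weights, which give noisy libraries less weight, 11 were called, all higher in PPARγ/+ cells, against 16.4% of all genes in either direction.

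Whether the fall from 0d to 5d itself differed between the cell types was tested as an interaction. Here too 0 of the 77 members were called, against 0.760% of all genes (limma). At an unadjusted p of at most 0.05 there were 2 members, against 2164 of the 18023 genes tested. Voom called 0 as well, with 1 at such a p. The median coefficient was 0.13 on the log2 scale, which means a smaller fall in PPARγ/+ cells, with an SE of 0.14 for a typical member, and 73 of the 77 were positive. Rps27l, with the larger fall in PPARγ/+ cells, had -0.23 ± 0.10 (adjusted p = 0.386). Among the highest coefficients were those of Rpl26 (0.28 ± 0.18) and Rps12 (0.27 ± 0.18), and the lowest beside Rps27l were those of Rpl24 (-0.60 ± 0.44) and Rpl29 (-0.03 ± 0.12). Intervals of this width do not show that the fall was the same in both.

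A further list held ribosomal proteins and paralogs outside the naming rule, with the assembly factors Rsl24d1 and Rpl7l1. Of the 8 tested, 5 fell in WT cells and 5 in PPARγ/+ cells (62.5% in each, against 23.0% and 28.8% of all genes), with medians of -0.46 and -0.39. Rack1, a scaffold on the small subunit, went from 177 ± 14.9 to 117 ± 3.95 FPKM in WT cells (limma adjusted p = 0.00394) and from 170.4 ± 12.8 to 127 ± 2.71 in PPARγ/+ cells (adjusted p = 0.00272). Rpl36al, Rpl7l1 and Rsl24d1 also fell in both, and Rpl22l1 fell in PPARγ/+ cells. Fau, the ubiquitin-like fusion that holds Rps30, had changes of -0.33 ± 0.12 and -0.24 ± 0.11 (adjusted p = 0.0747 and 0.119), and Rps3a1 of -0.34 ± 0.12 and -0.20 ± 0.09 (adjusted p = 0.0747 and 0.127). The 273 genes named as pseudogenes of members went from a summed 1567 ± 156 to 871 ± 35.7 FPKM in WT cells and from 1483 ± 173 to 909 ± 28.2 in PPARγ/+ cells.

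Genes that build the ribosome fell as well. Counts between the days, here and for the next lists, stand beside 23.0% of all genes that fell in WT and 28.8% in PPARγ/+ cells. Of 86 ribosome biogenesis factors, 76 fell and 0 rose in WT cells (88.4%) and 75 fell and 0 rose in PPARγ/+ cells (87.2%), with medians of -0.69 and -0.51. Nop56, a core protein of the box C/D particles, had the lowest change in WT cells, from 37.7 ± 2.39 to 12.9 ± 0.710 FPKM (-1.54 ± 0.08, limma adjusted p = 1.74e-04), and in PPARγ/+ cells it went from 28.4 ± 5.08 to 13.3 ± 0.621 (-1.08 ± 0.12, adjusted p = 5.67e-04). Nhp2, of the box H/ACA particles, fell by 1.40 and 1.08. At the other end were Sbds (0.23 in WT cells), Ddx51 (-0.01 and 0.13) and Nop10 (0.05 in PPARγ/+ cells), none of which was called there. On 0d, 8 of these 86 (9.30%) had a called difference between the cell types, all with less in PPARγ/+ cells. Of all genes, 3.37% were lower on 0d and 5.58% were called in either direction. The median difference of the list was -0.13. The median of their interaction was 0.21 with 0 called. At an unadjusted p of at most 0.05 there were 21 (limma), against 2164 of the 18023 genes tested.

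Of 15 genes of RNA polymerase I and its initiation factors, which make ribosomal RNA, 7 fell in WT (46.7%) and 9 in PPARγ/+ cells (60%) and 0 rose, with medians of -0.35 and -0.33. Taf1d fell most in both, by 1.09 and 1.16, followed by Polr1e in WT cells (0.92) and Polr1c in PPARγ/+ cells (0.73), while Taf1a (-0.08 and -0.11) and Taf1b (-0.19 and -0.12) were not called. Of 44 translation factors and related messages, 35 fell in WT (79.5%) and 37 in PPARγ/+ cells (84.1%), with medians of -0.58 and -0.50. The lowest were Eif5a, by 1.30 and 1.13, and Nap1l1, by 1.26 and 0.93. The only one that rose was Eif4a2, a helicase of the cap-binding complex, by 0.55 and 0.39. Naca (0.03 in WT cells) and Eif3e (0.05 in PPARγ/+ cells) were not called.

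Of 20 genes around mTORC1, the kinase complex that controls the translation of these messages, and of Larp1, 7 fell and 2 rose in WT cells and 12 fell and 1 rose in PPARγ/+ cells, with medians of -0.27 and -0.35. The shares that fell, 35% and 60%, and rose, 10% and 5%, stand beside 23.0% and 28.8% of all genes that fell and 14.1% and 18.8% that rose. Deptor, an inhibitor of mTOR, rose in both, from 13.97 ± 2.73 to 26.4 ± 2.71 FPKM in WT cells (limma adjusted p = 0.00589) and from 18.8 ± 2.64 to 27.7 ± 2.38 in PPARγ/+ cells (adjusted p = 0.00596). Pdcd4, an inhibitor of Eif4a, rose in WT cells (0.58 ± 0.16, adjusted p = 0.0325). The translational repressors Eif4ebp1 and Eif4ebp2 fell, by 0.69 and 0.80 in WT cells and by 0.87 and 0.68 in PPARγ/+ cells, and Larp4 fell by 0.76 in WT cells. These are message levels, and the activity of the complex was not measured.

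The messages for the proteins of the mitochondrial ribosome, encoded by a separate set of nuclear genes, also fell. Of 76 tested, 55 fell (72.4%) and 0 rose in WT cells and 63 fell (82.9%) and 1 rose in PPARγ/+ cells, with medians of -0.48 and -0.53. The lowest were Mrps18b (-0.99) and Mrpl12 (-0.92) in WT cells and Mrps22 (-0.99) and Mrpl18 (-0.93) in PPARγ/+ cells. Mrpl33 rose in PPARγ/+ cells (0.34 ± 0.10, limma adjusted p = 0.0279), and Mrpl24 (0.11 in WT cells) and Mrps6 (0.23 in PPARγ/+ cells) were not called. Here the median fall was not smaller in PPARγ/+ cells, and the median of the interaction was -0.03 with 0 called, against 0.13 over the cytosolic members. That difference between the 2 sets was not tested.

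**Figure D5:**
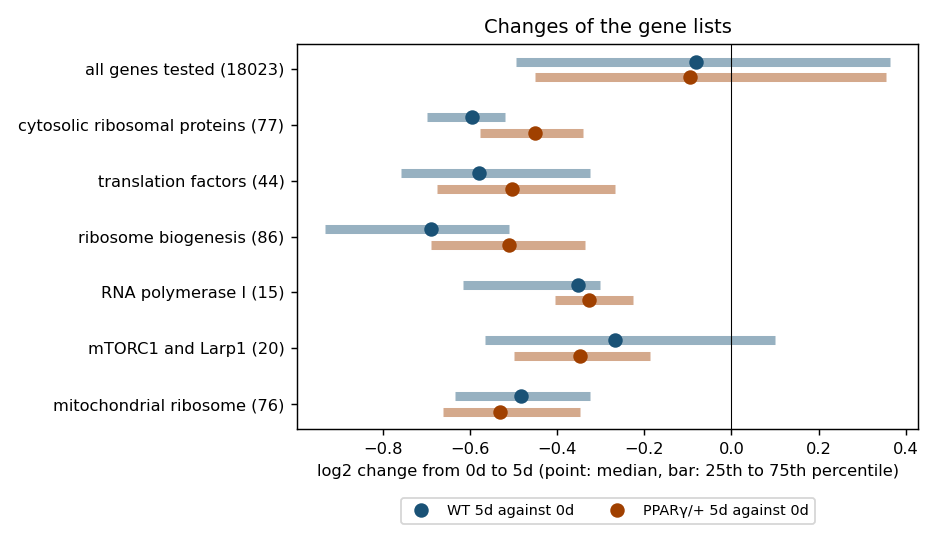
Median (points) and 25th to 75th percentile (bars) of the log2 change from 0d to 5d in WT cells (blue) and PPARγ/+ cells (brown) for all genes tested, the members and 5 lists of related genes, with the number of genes tested in brackets. The medians of the members lie at -0.59 and -0.45 and those of all genes at -0.08 and -0.10, and each list lies to the left of all genes.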

How the data were processed

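RNA of 12 C2C12 libraries was sequenced as paired reads. The libraries were made with the TruSeq RNA kit, which does not mark strand. FPKM were calculated by the authors from HTSeq counts, after trimming (Trim Galore) and alignment (STAR). The study's methods name the Ensembl release of GRCm38, whereas the submitters' processing notes name mm9. The deposited FPKM gave whole fragments (tolerance 0.001) with the joined exon lengths of GENCODE M21 (GRCm38) for 21058 of 27138 genes with a value. For 6072 others the length was inferred as the shortest that gives whole fragments in every library, so that wholeness there follows in part from that choice, and 8 were left out of fragment counts. A second deposited table holds log2(FPKM + 1) of the same values by the authors. The largest difference between them was 5.33e-14, and it was not used further.

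Genes with at least 0.1 FPKM in at least 3 libraries were tested with limma 3.58.1 in R 4.3.3 (empirical Bayes with a trend) on log2(FPKM + 0.1), so that changes of low genes are understated. The days were compared on the 6 libraries of a cell type, the cell types and the interaction on all 12, and genes were called at a Benjamini-Hochberg adjusted p of at most 0.05. The fits were tested on simulated data. A floor of 3 fragments was taken, which covers counting error only. Named are the 3 highest and 3 lowest members of each comparison and of the mean level, paralogs and members with set roles; of other lists, the 2 highest and 2 lowest genes in each day comparison; and members singled out by a count. A few genes that the rule or a count picks out are not reported here. The members and lists were chosen with earlier results of these data known. Python 3.11.15, pandas 2.3.3 and matplotlib 3.10.9 were used. Sequences and positions are from RefSeq (GRCm38.p6) and GENCODE M21.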

Additional observations from a re-analysis of the deposited data

How the results depend on the processing

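No called change of a named member reversed under any alternative that was run, nor did the median over the members in a day comparison, and the count of members called at an adjusted p of at most 0.05 in WT 5d against 0d did not move by over 1.5 times. It was 68 as reported, 47 to 73 when 1 library was left out and 56 to 74 otherwise (other pseudocounts, filters, scalings, libraries in the fit, array weights, voom). Without a filter 1 of 56 was a rise, that of Rpl3l at 1 to 3 fragments per library. In PPARγ/+ 5d against 0d it was 66, with 53 to 71 when 1 library was left out. Median-ratio scaling, whose construction sets the typical gene near 0, gave 43, against 44.8% of all genes called. The remaining alternatives gave 55 to 69. For PPARγ/+ against WT on 5d the count was 0, with 0 to 3 when 1 library was left out, 11 with array weights, and 0 otherwise; the cause was not tested. On 0d and in the interaction it was 0 throughout, while the median on 0d went from 0.02 to -0.02 under median-ratio scaling. Rescaling to an equal sum and voom were added after the data were seen. A fit that left out 1 library of a group of 3 kept the spread of the others.

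By the 2-fold rule 1 member was called in WT cells, with 1 to 3 when 1 library was left out and 2 with quantile normalization, and 2 in PPARγ/+ cells, with 1 under median-ratio scaling.

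With the replicate number as a block, 61 members were called in WT and 63 in PPARγ/+ cells, and 0 in the other comparisons. Deviations of same-numbered libraries correlated between -0.07 and 0.08, and those of differently numbered libraries between -0.12 and 0.10. With 3 libraries per group this cannot show whether the numbers pair libraries, and the sample titles do not say.

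Among single named members, 36 of 390 values under alternatives lost the call and 7 gained it in WT 5d against 0d, and 26 and 5 of 390 did so in PPARγ/+ cells. Rps24 lost it most often. Precision is limited by 3 libraries per group and by the spread among the WT_5d libraries.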
